A study of Mus musculus with 6 samples.

Results

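The MAP kinase phosphatases Dusp1, Dusp4, Dusp5, Dusp6 and Dusp10 and the Sprouty and Spred proteins Spry1, Spry2, Spry4, Spred1 and Spred2 were examined in TC-1/A9 tumour cells with and without epigenetic treatment. All array probes annotated with 1 of these 10 symbols were taken when they were detected (detection p of at most 0.01 against the negative controls of the chip) on at least 1 of the 6 arrays. This gave 13 probes of 7 genes, out of 17445 detected probes and 9192 named genes with a detected probe. Spry1, Spry2 and Spred2 had no named probe among those detected, and their levels are not given here. TC-1/A9 cells are MHC class I-deficient and derive from C57BL/6 mice. The line goes back to tumours of TC-1, which are lung cells transformed with an activated Ha-ras of human origin together with HPV16 E6/E7. All cultures of both groups thus come from a single line of that origin, and the transgene was not examined in them here. In the DAC/TSA group, 5-aza-2'-deoxycytidine (DAC), which inhibits DNA methyltransferases, was given at 3 μM for 48 h. It was followed by trichostatin A (TSA), which inhibits histone deacetylases, at 30 ng/ml for a further 24 h. The other group was left untreated. Each group had 3 biological replicates, with 1 Illumina Mouse WG-6 bead array each, and every treated culture received both inhibitors, so that the contribution of each cannot be told apart.

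Signals through receptor tyrosine kinases and Ras are carried by the kinases RAF, MEK and ERK, and the ERK pathway switches on its own inhibitors. The dual-specificity MAP kinase phosphatases remove phosphates from ERK, JNK or p38, whereas Sprouty and Spred proteins act upstream, at the level of Ras and RAF. Many of these genes are transcribed in response to ERK activity and are known as negative feedback regulators in Ras-driven tumour cells.

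Promoters of these genes are shown because DAC blocks the methylation of CpG sites. RefSeq promoter sequences (GRCm38.p6) were read for the 250 bases before the transcription start, 5′ to 3′ on the strand of the gene, with every CpG in capitals. The first 3 belong to genes that were lower after DAC/TSA and the last 2 to genes without a call, and the promoters of Dusp4 and Spry4 are not shown. The windows lie at chr19:53528895-53529144 (plus strand, Dusp5), chr1:184034131-184034380 (plus strand, Dusp10), chr2:117120821-117121070 (plus strand, Spred1), chr17:26508473-26508722 (minus strand, Dusp1) and chr10:99262981-99263230 (plus strand, Dusp6).
Dusp5: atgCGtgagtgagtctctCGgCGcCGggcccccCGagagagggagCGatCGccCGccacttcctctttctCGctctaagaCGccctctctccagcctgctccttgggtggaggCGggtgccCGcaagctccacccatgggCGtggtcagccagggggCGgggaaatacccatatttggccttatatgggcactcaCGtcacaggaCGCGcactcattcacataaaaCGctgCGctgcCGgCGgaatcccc
Dusp10: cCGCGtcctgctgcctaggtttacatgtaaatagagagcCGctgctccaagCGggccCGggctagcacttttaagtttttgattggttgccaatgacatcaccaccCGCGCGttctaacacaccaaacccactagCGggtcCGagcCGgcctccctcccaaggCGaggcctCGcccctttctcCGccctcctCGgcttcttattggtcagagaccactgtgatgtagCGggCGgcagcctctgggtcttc
Spred1: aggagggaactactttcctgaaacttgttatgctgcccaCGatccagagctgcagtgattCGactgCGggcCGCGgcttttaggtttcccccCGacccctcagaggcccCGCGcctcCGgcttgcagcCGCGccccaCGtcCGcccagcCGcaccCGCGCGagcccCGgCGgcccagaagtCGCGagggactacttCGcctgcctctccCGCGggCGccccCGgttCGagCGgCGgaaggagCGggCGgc
Dusp1: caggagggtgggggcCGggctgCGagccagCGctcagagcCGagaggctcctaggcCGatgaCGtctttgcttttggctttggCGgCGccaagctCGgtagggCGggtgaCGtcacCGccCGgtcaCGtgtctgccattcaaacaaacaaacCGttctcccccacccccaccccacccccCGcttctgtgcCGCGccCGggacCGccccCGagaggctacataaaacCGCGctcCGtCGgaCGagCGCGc
Dusp6: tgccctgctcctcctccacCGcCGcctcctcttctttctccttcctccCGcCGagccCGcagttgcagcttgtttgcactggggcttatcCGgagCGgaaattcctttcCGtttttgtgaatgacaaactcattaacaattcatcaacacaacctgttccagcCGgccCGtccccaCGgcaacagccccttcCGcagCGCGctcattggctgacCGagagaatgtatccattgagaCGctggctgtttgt

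The Spred1 window held 31 CpG sites, the Dusp1 window 28, the Dusp5 window 21, the Dusp10 window 17 and the Dusp6 window 16. The median over 32851 promoter windows of the same length was 6, and the upper quartile was 16, so all 5 windows lay at or above the upper quartile. In these 5, genes with a fall (17 to 31) and genes without a call (16 to 28) had overlapping CpG numbers. As many CpG sites as in Spred1 or more were found in 5.19% of all windows, and as many as in Dusp6 or more in 25.4%. The cAMP response element TGACGTCA was present once in the Dusp1 window, and 1.55% of all windows held it. The serum response (CArG) box was found 2 times in the Dusp5 window, and 1.47% of all windows held it. GC boxes (GGGCGG or CCGCCC) occurred in the Dusp1, Dusp5, Dusp10 and Spred1 windows and in 32.7% of all windows. The AP-1 motif (TGAGTCA or TGACTCA, 4.46% of all windows) and the ETS motif (CCGGAA or TTCCGG, 12.0%) matched none of the 5. Motifs were searched on both strands, a match is a string and not a site of binding, and the methylation of these windows was not measured on the arrays.

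DAC/TSA treatment was followed by lower levels of Spry4, Spred1, Dusp5 and Dusp10 and by higher signals of 3 of the 4 Dusp4 probes, while Dusp1 and Dusp6 passed the test with none of their probes. Values are log2 signals, quantile-normalised between the 6 arrays, and differences are DAC/TSA minus untreated on that scale. A probe was called when the adjusted p of the limma fit over all detected probes was at most 0.01. Of the 13 probes, 3 were higher, 5 were lower and 5 were not called. The treatment was broad, with 38.7% of all detected probes called (19.3% higher and 19.3% lower), so the 8 calls have to be read against that share. The groups of arrays did not overlap for 9 of the 13 probes and for 59.0% of all probes. The median difference of the 13 probes was -0.01, against 0.00 over all probes, and their median absolute difference was 0.56, against 0.27. These medians count Dusp4 by 4 probes, Dusp6 by 3 and Dusp10 by 2. The genes were also chosen with earlier results of these data known. A total of 12 probes were detected on all 6 arrays, and no probe had been kept through a single group, so the filter did not choose among directions.

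**Figure D1:**
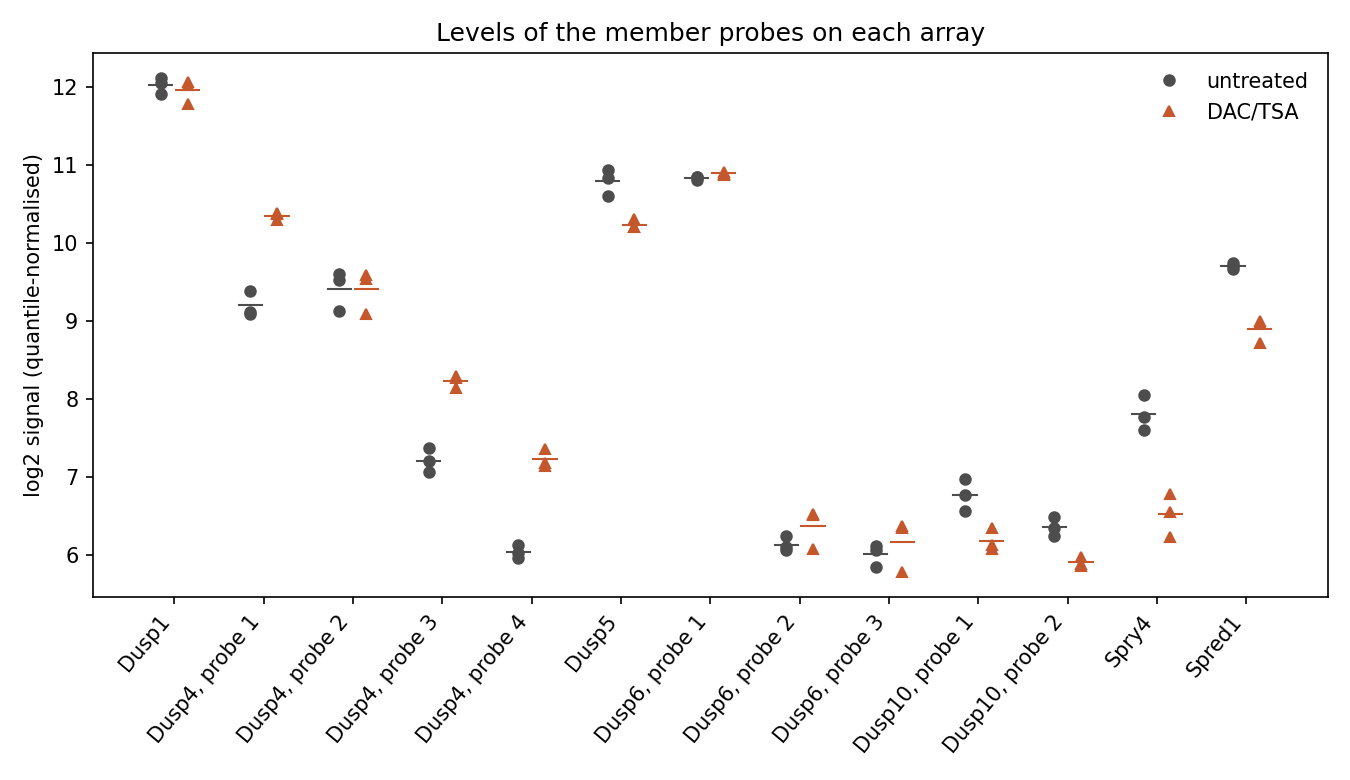
Quantile-normalised log2 signal (vertical axis) of each of the 13 probes on the 3 untreated arrays (circles) and the 3 DAC/TSA arrays (triangles), with a line at each group mean. The groups are apart for Dusp4 probes 1, 3 and 4, Dusp5, both Dusp10 probes, Spry4 and Spred1. Those of Dusp6 probe 1 do not overlap either, with a difference of only 0.06. The groups lie on each other for Dusp1 and Dusp4 probe 2.

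Arrays were similar within groups, with r of 0.992 or above across probes, and r between groups was at most 0.962. The number of detected probes per array ran from 14704 to 14802 without treatment and from 15008 to 15783 with it. The signal at the detection limit lay between 5.73 and 5.84 log2 units, and probes with levels near 6 therefore stood close to it. Of 18 immune cell marker genes, 7 were measured, 5 higher and 2 lower after treatment, and Ptprc, Cd3e, Itgam, Adgre1 and Csf1r had no named detected probe. Of the 7 measured, 4 were undetected on all untreated arrays and 1 on all DAC/TSA arrays. The filter kept those only through the other group, which largely fixed their direction. The summed normalised signal of the 7 was between 566 and 588 on untreated and between 719 and 769 on DAC/TSA arrays. All 5 measured genes of 12 epithelial and lung markers were higher, and 7 of the 9 measured mesenchymal markers were lower (1 of 9 with arrays scaled to their medians). That scaling called 1279 of 17445 probes lower, against 3374 with quantile normalisation. The median difference of the mesenchymal markers was -0.50 with it, against -0.56. With quantile normalisation, 22.5% of all named genes were higher and 21.4% lower, each gene by its brightest detected probe. Undetected on all untreated arrays were 2 of the epithelial and lung markers, and undetected on all DAC/TSA arrays were 2 mesenchymal markers. These too were kept only through the other group. The part of these marker shifts in the results on the phosphatases and Sprouty genes was not tested. In total RNA of a culture, fewer cells that express a gene and less RNA of that gene per cell cannot be told apart.

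Dusp1, Dusp4 and Dusp5 are nuclear phosphatases induced by growth factors and stress. Dusp1 dephosphorylates p38, JNK and ERK, Dusp4 mainly ERK and JNK, and Dusp5 ERK. Dusp1 (probe ILMN_2622983) was the member with the brightest probe, but it gave no call. Its levels were 11.92, 12.12 and 12.05 on untreated arrays 1, 2 and 3 and 11.78, 12.03 and 12.07 on DAC/TSA arrays 1, 2 and 3. The groups overlapped, and array 1 was the lowest in each. The difference was -0.07 (SE 0.10, 95% confidence interval -0.29 to 0.15, adjusted p = 0.589), and without DAC/TSA array 1 it was 0.02.

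Dusp4 was measured by 4 probes, numbered from the brightest, and they did not give a single answer. Probe 1 (ILMN_2689731) stood at 9.39, 9.10 and 9.12 untreated and at 10.38, 10.38 and 10.30 after DAC/TSA. All DAC/TSA arrays were above all untreated ones, and the fold was 2.22 (95% confidence interval 1.92 to 2.58, difference 1.15, SE 0.10, adjusted p = 5.24e-06). Probe 3 (ILMN_2870965) read 7.37, 7.20 and 7.07 untreated and 8.29, 8.14 and 8.26 after treatment, which was 2.03-fold higher (1.75 to 2.35, difference 1.02, SE 0.10, adjusted p = 1.26e-05). Probe 4 (ILMN_2608995) lay close to the detection limit in untreated cells, at 6.12, 5.96 and 6.03, and rose to 7.36, 7.18 and 7.14. This was a 2.28-fold increase (1.99 to 2.63, difference 1.19, SE 0.09, adjusted p = 2.8e-06), again with no overlap between groups. A called rise of at least 2-fold was found for 3.07% of all detected probes, and these 3 Dusp4 probes were among them.

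Dusp4 probe 2 (ILMN_2450767) differed from the other Dusp4 probes. Its levels were 9.13, 9.52 and 9.60 untreated and 9.09, 9.54 and 9.59 after DAC/TSA. The groups lay on each other, with array 1 about equally low in both. The difference was -0.01 (SE 0.15, adjusted p = 0.972), and its 95% confidence interval of -0.35 to 0.33 did not reach the intervals of probes 1, 3 and 4, the lowest bound of which was 0.80. Between arrays of the same number, probe 2 differed by -0.03, 0.02 and -0.01 for numbers 1, 2 and 3, whereas probe 1 differed by 0.996, 1.28 and 1.18. The array annotation gives all 4 probes the same transcript, and where along it each probe lies was not analysed here. When the probes were averaged, Dusp4 was higher by 0.84 (SE 0.06, adjusted p = 5.2e-06). Of 3342 genes with several detected probes, 1164 (34.8%) had both called and uncalled probes, which includes probes just short of the threshold, and 60 (1.80%) had calls in both directions.

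**Figure D2:**
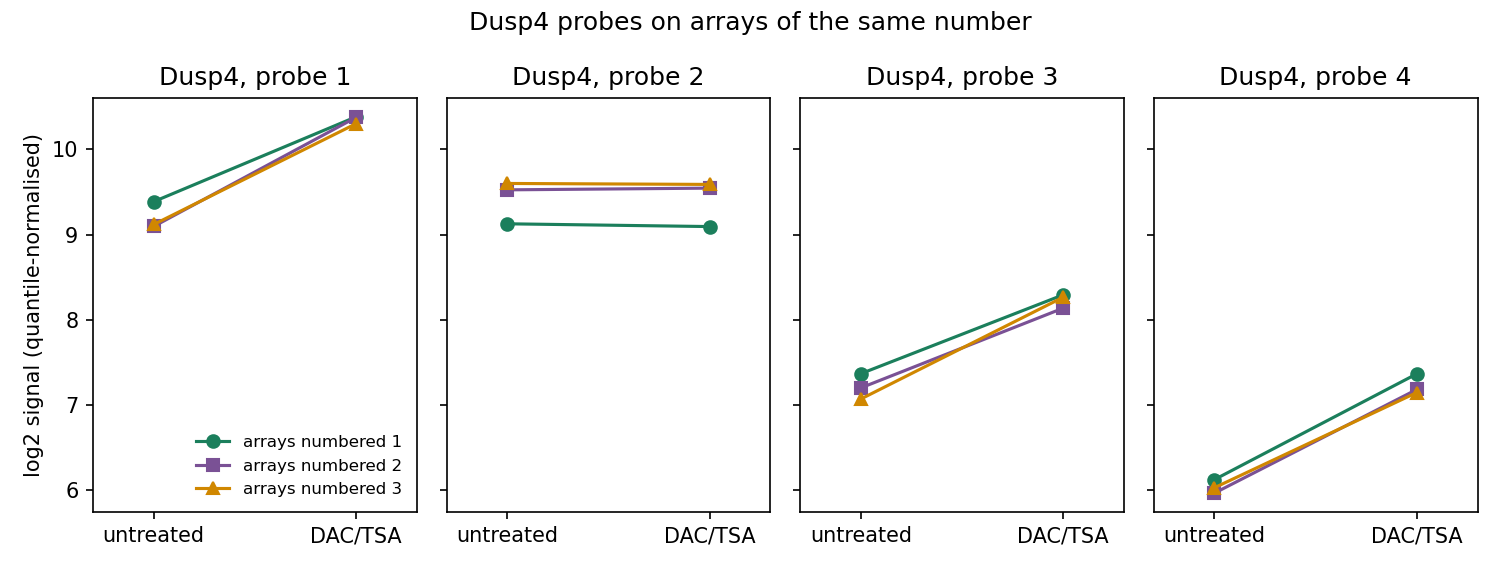
Quantile-normalised log2 signal (vertical axis) of the 4 Dusp4 probes in untreated and DAC/TSA cells (horizontal axis), 1 panel per probe, with lines joining arrays of the same replicate number. Probes 1, 3 and 4 rise by 0.93 to 1.28 on every line, and the lines of probe 2 are flat, with the arrays numbered 1 below the others in both groups.

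Dusp5 (probe ILMN_2531737) moved opposite to the 3 called Dusp4 probes. The untreated arrays read 10.94, 10.61 and 10.84 and the DAC/TSA arrays 10.30, 10.20 and 10.20. Every treated array was below every untreated one. Dusp5 fell 1.47-fold (95% confidence interval 1.27 to 1.71, difference -0.56, SE 0.10, adjusted p = 0.000842). A fall of this size or more was seen in 10.95% of detected probes. With arrays scaled to their medians in place of quantile normalisation the difference was -0.48 and the call was lost (adjusted p = 0.0171).

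Dusp6 is the cytoplasmic phosphatase specific for ERK and is widely read as a marker of ERK activity. None of its 3 probes was called. Probe 1 (ILMN_2925711) was bright and tight, at 10.81, 10.85 and 10.85 untreated and at 10.91, 10.88 and 10.89 after DAC/TSA. The groups did not overlap, but the difference was 0.06 (SE 0.08, 95% confidence interval -0.11 to 0.23, adjusted p = 0.539). Probe 2 (ILMN_2701321) read 6.24, 6.11 and 6.06 untreated and 6.53, 6.51 and 6.07 treated. Its difference was 0.24 (SE 0.12, -0.04 to 0.51, adjusted p = 0.137), with treated array 3 at the untreated level. Probe 3 (ILMN_1248537) was at 5.85, 6.11 and 6.06 untreated and 5.78, 6.37 and 6.34 treated, and it was detected on 3 untreated and 2 DAC/TSA arrays. Array 1 was the lowest of each group, the difference was 0.16 (SE 0.15, adjusted p = 0.406), and it was 0.27 without both arrays numbered 1 (adjusted p = 0.00996), which is past the threshold. Averaged over the probes, Dusp6 differed by 0.15 (adjusted p = 0.0947).

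Dusp10 dephosphorylates the stress kinases p38 and JNK rather than ERK, and both of its probes were lower. Probe 1 (ILMN_2678724) read 6.98, 6.77 and 6.56 in untreated cells and 6.34, 6.12 and 6.08 after DAC/TSA. Probe 2 (ILMN_2818964) read 6.34, 6.25 and 6.49 untreated and 5.88, 5.98 and 5.85 treated. For each probe the treated arrays were all below the untreated arrays, and the treated levels came close to the detection limit. Probe 1 fell 1.503-fold (1.25 to 1.80, difference -0.59, SE 0.12, adjusted p = 0.00187) and probe 2 fell 1.37-fold (1.20 to 1.57, difference -0.46, SE 0.09, adjusted p = 0.00166). The mean of both differed by -0.52 (adjusted p = 0.000276). Median scaling took the call from both probes (adjusted p = 0.0117 and 0.0783). Probe 1 also lost it without DAC/TSA array 2 (adjusted p = 0.0113) or array 3 (0.0106), and background correction with neqc, which subtracts a level estimated from the negative controls, moved probe 2 to -0.70.

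Spry4 had the steepest fall of the 7 genes. Sprouty proteins are membrane-associated inhibitors that block growth factor signals between the receptor and RAF. The single Spry4 probe (ILMN_2825817) read 8.05, 7.61 and 7.77 without treatment and 6.78, 6.24 and 6.55 after DAC/TSA. The groups were far apart, and in both of them array 1 was the highest and array 2 the lowest. Spry4 was 2.44-fold lower after treatment (95% confidence interval 1.94 to 3.05, difference -1.28, SE 0.15, adjusted p = 4.61e-05). Between arrays of the same number it differed by -1.27, -1.37 and -1.21. A called fall of at least 2-fold was found for 3.04% of detected probes, and 1.34% fell by as much as Spry4 or more. The call was kept under all 15 alternatives tried, with differences from -1.57 to -1.13.

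Spred1 recruits neurofibromin, the Ras GTPase-activating protein encoded by Nf1, to the membrane and thereby restrains Ras. Its probe (ILMN_2490252) stood at 9.67, 9.70 and 9.75 in untreated cells and at 8.999, 8.98 and 8.72 after DAC/TSA. The untreated arrays were close together, and DAC/TSA array 3 was the lowest of all. Spred1 fell 1.75-fold (1.51 to 2.02, difference -0.81, SE 0.09, adjusted p = 5.15e-05), and 5.40% of detected probes fell as much or more. The call was kept under all 15 alternatives, with differences from -0.88 to -0.72. Nf1 itself was named after its values were seen. Its brighter probe was detected on all untreated arrays and on no DAC/TSA array. This gave at least a 1.44-fold fall against the detection limit (adjusted p = 0.000145 for the fitted difference), whereas the other Nf1 probe was not called.

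**Figure D3:**
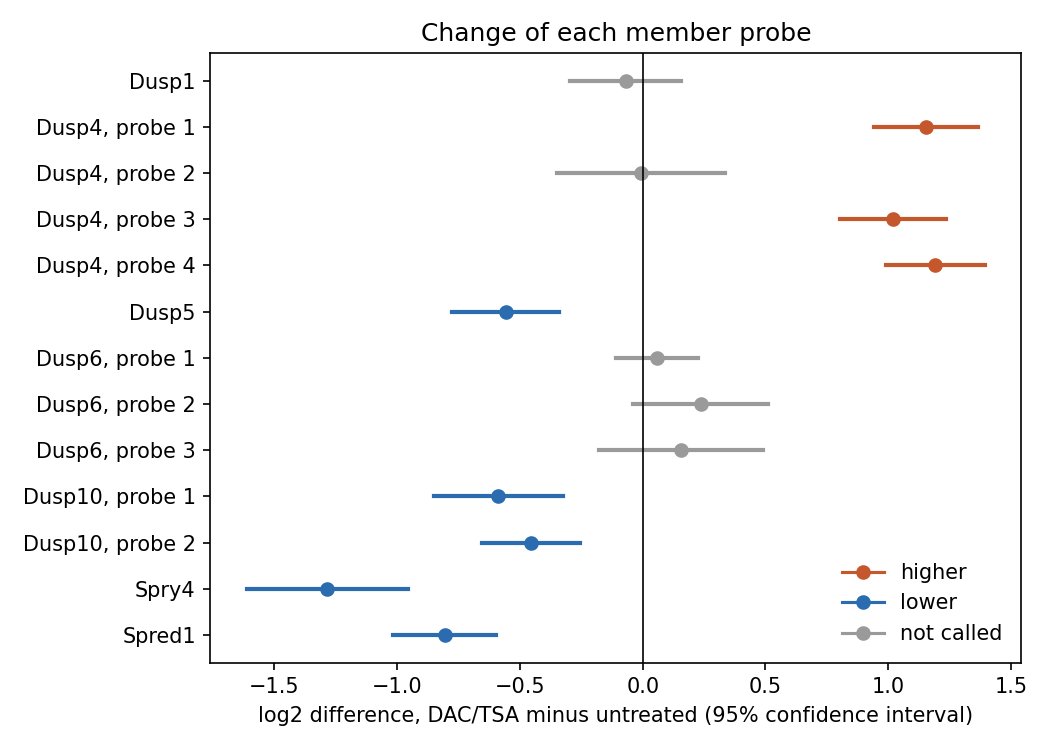
Difference in log2 signal, DAC/TSA minus untreated (horizontal axis), of each probe, with bars for the 95% confidence interval of the limma fit over 3 arrays per group. Colours mark the 3 higher, 5 lower and 5 uncalled probes, and the interval of Dusp4 probe 2 lies apart from those of the other Dusp4 probes.

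The remaining genes of the pathway were read from 6 lists, each gene by its brightest detected probe. Over all named genes, 43.9% were called by this measure (22.5% higher and 21.4% lower), with a median difference of 0.01. Of 12 housekeeping genes, 10 were measured, with 1 higher, 3 lower, 6 uncalled and a median of -0.23. Of the 7 genes described above, 1 was higher, 4 were lower and 2 were not called.

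Among 19 other dual-specificity phosphatases, 12 were measured, of which 4 were higher, 2 lower and 6 did not pass, with a median of 0.16. Dusp14 rose 1.57-fold (1.37 to 1.80, adjusted p = 0.000139). Dusp2, like Dusp4 a nuclear and inducible phosphatase, rose 1.45-fold (1.23 to 1.71, adjusted p = 0.00176), with a further probe uncalled. Dusp15 was undetected in untreated cells and was at least 1.38-fold higher (adjusted p = 0.000496 for the fitted difference). Dusp7, a cytoplasmic ERK phosphatase related to Dusp6, fell 1.79-fold (1.59 to 2.02, adjusted p = 9.9e-06). Dusp8, which like Dusp10 acts on JNK and p38, fell 1.51-fold (1.29 to 1.76, adjusted p = 0.000643) with both of its probes. The called phosphatases of this list thus included higher and lower genes.

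Among 23 other feedback and ERK-restraining genes, 20 were measured, 4 were higher, 8 lower and 8 did not pass, with a median of -0.32. Spry3, a Sprouty family member, rose while Spry4 fell. It read 5.87, 5.86 and 5.58 in untreated cells, where it was detected on 2 of 3 arrays, and 6.75, 6.83 and 6.65 after DAC/TSA. The untreated levels lay at the detection limit, so the size of the rise is uncertain. The fitted difference was 0.97 (adjusted p = 2.25e-05) and 1.46 with neqc background correction, and the groups did not overlap. Pea15a, which holds ERK in the cytoplasm, rose 2.01-fold (1.69 to 2.38, adjusted p = 3.54e-05), and Il17rd, an inhibitor of FGF receptor signals, rose 1.87-fold (1.65 to 2.11, adjusted p = 8.7e-06). The endocytic adaptor Dab2 fell 2.04-fold (1.78 to 2.34, adjusted p = 7.12e-06). Socs3, the feedback inhibitor of cytokine receptors, fell 1.92-fold (adjusted p = 7.48e-06). Dok1, an adaptor that dampens Ras signalling, fell 1.502-fold (1.23 to 1.84, adjusted p = 0.0038), a call that was lost without DAC/TSA array 2 (adjusted p = 0.0138) or array 3 (0.0170). Without DAC/TSA array 2 the number of lower genes in this list was 4, and without untreated array 2 it was 5. These fits called 2496 and 2708 of 17445 probes lower, against 3374 with all arrays (28.6%, 30.7% and 38.7% in either direction). Without untreated array 1 the list held 10 lower genes, and 3580 probes were called lower (41.4% called in either direction).

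Receptor tyrosine kinases and their ligands feed the pathway. Of 35 genes 24 were measured, 2 were higher, 13 lower and 9 did not pass, with a median of -0.36. The number of lower genes was between 10 and 16 when single arrays were left out. These fits called 2496 to 3580 of 17445 probes lower (28.6% to 41.4% in either direction). Insr, the insulin receptor, fell 3.43-fold (2.94 to 3.99, adjusted p = 3.73e-07), from 9.41 ± 0.11 to 7.64 ± 0.15 (SD, n = 3). Igf1r, the receptor of insulin-like growth factors, fell 3.36-fold (2.88 to 3.92, adjusted p = 4.3e-07), although its dimmer probe was not called and the mean of both differed by -1.02. The angiogenic ligand Vegfa fell 2.13-fold (1.61 to 2.81, adjusted p = 0.00056) with both probes. Egfr, the receptor of epidermal growth factor, was undetected in untreated cells and was at least 1.10-fold higher (adjusted p = 0.000386 for the fitted difference). Met, the receptor of hepatocyte growth factor, rose 1.40-fold (1.19 to 1.64, adjusted p = 0.00295), but lost the call when untreated array 2 (adjusted p = 0.0130) or 3 (0.0111) or DAC/TSA array 1 (0.0102) or 2 (0.0130) was left out.

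Of 35 genes of the Ras-ERK cascade itself, 16 were measured, 3 were higher, 2 lower and 11 did not pass, with a median of 0.03. The scaffold Gab1 rose 1.59-fold (1.37 to 1.85, adjusted p = 0.000215). The kinase Araf rose 1.52-fold (1.31 to 1.76, adjusted p = 0.000457), with 2 of its 4 probes called and a probe mean of 0.34, and the ERK-activated kinase Mknk1 rose 1.42-fold (1.21 to 1.67, adjusted p = 0.00219), with 2 of 3 called and a probe mean of 0.31. Without untreated array 2 or 3 Mknk1 was not called (adjusted p = 0.0106 and 0.0111). Mras, a Ras-related GTPase, fell 1.41-fold (1.24 to 1.60, adjusted p = 0.000584) with 1 of 2 probes, and the mean of both was not called (-0.24, adjusted p = 0.0135). The related Rras fell 1.24-fold (1.10 to 1.40, adjusted p = 0.00698), and this call was lost when untreated array 2 or 3 or any DAC/TSA array was left out, with adjusted p between 0.0179 and 0.0348, and with neqc background correction (0.0158).

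In the JNK and p38 cascades, the targets of Dusp10, 18 of 24 genes were measured, 2 were higher, 9 lower and 7 did not pass, with a median of -0.30. Mapk8ip1, the JNK scaffold JIP1, rose 2.76-fold (2.33 to 3.26, adjusted p = 2.44e-06) with both probes, and Map3k7, the kinase TAK1, rose 1.84-fold (1.63 to 2.08, adjusted p = 9.27e-06) with 1 of 2 and a probe mean of 0.55. Map2k5, the activator of ERK5 placed in this list, fell 2.02-fold (1.79 to 2.27, adjusted p = 3.02e-06) with both probes. Map2k3, which activates p38, fell 1.93-fold (1.70 to 2.19, adjusted p = 6.69e-06), and Map3k11, which acts upstream of JNK, fell 1.78-fold (1.57 to 2.02, adjusted p = 1.53e-05).

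Among 30 transcriptional targets and effectors of ERK, 25 were measured. By the brightest probe 13 were lower, 0 higher and 12 did not pass, with a median of -0.38. With the replicate number as a block the number of lower genes was 19. That fit called 4395 of 17445 probes lower, against 3374 without the block (51.6% and 38.7% in either direction). The lower genes numbered 5 with arrays scaled to their medians, where 1279 probes were called lower (18.6% called in either direction). With the probes of a gene averaged, 11 genes were lower. Bcl2l11 and Ets1, singled out after their values were seen, had called probes in both directions, and the mean over probes was -0.21 for Bcl2l11 (adjusted p = 0.0393) and -0.01 for Ets1 (adjusted p = 0.915). Srf, the serum response factor, fell 2.85-fold (2.47 to 3.29, adjusted p = 7.29e-07), with its dimmer probe uncalled and a probe mean of -0.91. The zinc finger factor Egr3 fell 2.57-fold (2.18 to 3.03, adjusted p = 3.32e-06), and the AP-1 subunit Fosb fell 2.43-fold (1.90 to 3.11, adjusted p = 8.07e-05). Egr1 and Fos, which were picked after their values had been seen, were not called, with differences of -0.09 (SE 0.10, adjusted p = 0.467) and -0.04 (SE 0.14, adjusted p = 0.839). By this measure no gene of the list was called higher under any alternative tried.

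**Figure D4:**
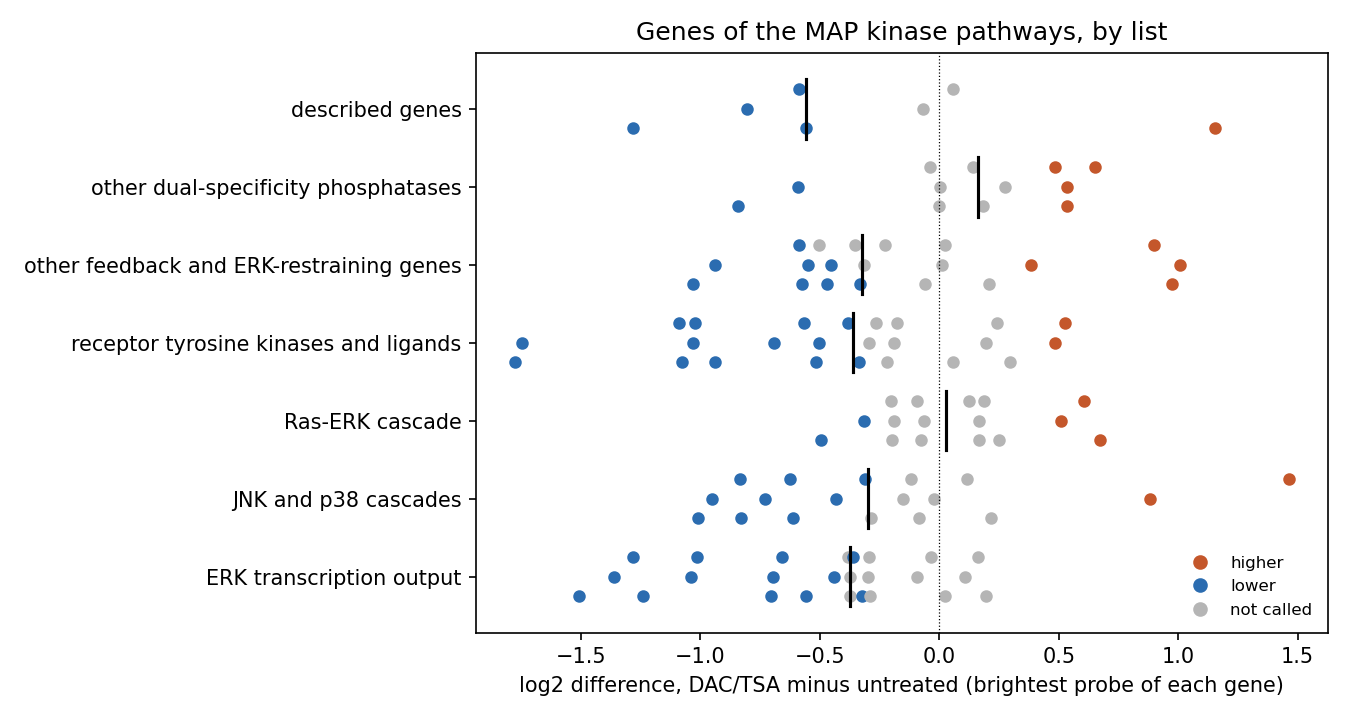
Difference in log2 signal, DAC/TSA minus untreated (horizontal axis), of each measured gene by its brightest probe, in 7 rows for the described genes and the 6 pathway lists, with a black line at the median of each row. Called genes are coloured by direction, and the row of ERK targets and effectors holds 13 lower and 0 higher genes.

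Counts of lower genes in these lists depended on how arrays were scaled. With median scaling, the number of lower genes was 2 of 20 for the other feedback genes, 7 of 24 for receptors and ligands, 4 of 18 for JNK and p38 and 5 of 25 for ERK targets, and 1 and 0 for the other phosphatases and the Ras-ERK cascade. Dusp8, Dok1, Vegfa, Mras, Rras, Araf and Fosb were not called with it. Under this scaling 18.6% of all 17445 probes were called in either direction. Called lower were 1279 probes, against 3374 with quantile normalisation. The median of all probes shifted to 0.08.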

How the data were processed

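Total RNA of 3 untreated and 3 DAC/TSA-treated TC-1/A9 cultures was measured on bead arrays. Groups were taken from the sample labels. The authors extracted bead-summarised signals with BeadStudio, and the deposited signal intensity of each of 45281 probes is linear and not normalised. A deposited detection p-value stands beside each signal. The authors also deposited log2 values, quantile-normalised with lumi and limma, for 16148 probes. These served as an alternative and differed from the values used here by at most 0.0125.

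Intensities were quantile-normalised without background correction and put on the log2 scale, and 17445 probes were kept, those whose detection p was 0.01 or less on any array (at least 1). Groups were compared with limma 3.58.1 in R 4.3.3 (lmFit and eBayes, two-sided), with Benjamini-Hochberg adjustment over the kept probes and a false discovery rate of 0.01. All adjusted p-values come from such limma fits. Differences carry the standard error of the fit, and only 3 arrays per group limit the precision. The script was tested on simulated data. Of the kept probes, 13943 carried 1 symbol, 7 several and 3495 are unnamed here, and 13930 were matched by Entrez identifier to the RefSeq table of GRCm38.p6. A fold of a gene undetected in a group was computed against the detection limit of the arrays. The adjusted p beside it tests the fitted difference and not this bound, and such a gene passed the filter through the other group alone. Cross-hybridisation between family members was not examined. Figures were drawn with matplotlib 3.10.9.

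Arrays carry numbers 1 to 3 in each group. For arrays sharing a number, the correlation of their deviations from the group means was 0.63, 0.24 and 0.36, all above 0.1, so the numbers were treated as pairs in an alternative fit. Untreated array 2 with DAC/TSA array 3 (0.37) and untreated array 3 with DAC/TSA array 2 (0.38) correlated as well. The labels state no pairing.

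The members and lists were chosen with earlier results of these data known. From each pathway list, the called genes with the 3 greatest differences in each direction were named. Alternatives were median scaling, neqc and normexp background correction, no detection filter, detection on at least 3 arrays, the deposited log2 table, eBayes with a trend, the replicate block, and leaving out each array or both arrays numbered 1.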

Additional observations from a re-analysis of the deposited data

How the results depend on the processing

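Of 195 values of the 13 probes under alternatives, 183 kept their direction and their side of the threshold. The replicate block, the eBayes trend and the changed detection filters cannot alter a difference, only its adjusted p. Median scaling weakened Dusp5 (-0.48) and Dusp10 probes 1 (-0.47) and 2 (-0.36), and left 2 lower probes among the 13. Of the 115 genes measured in the pathway lists, it left 12 higher and 19 lower (15 and 47 with quantile normalisation). Of 17445 probes on the array, it left 1964 higher and 1279 lower (3371 and 3374), with 60.6% of calls higher against 49.98%. Dusp4 probe 2, without a call, changed sign with it (0.058), without untreated array 2 (0.046) or 3 (0.084), without DAC/TSA array 1 (0.15) and without both arrays numbered 1 (0.0044), and Dusp1 without DAC/TSA array 1 (0.021). The cause was not tested. When arrays were left out, differences ranged from -0.13 to 0.02 for Dusp1, 1.10 to 1.25, -0.15 to 0.15, 0.95 to 1.10 and 1.12 to 1.23 for Dusp4 probes 1 to 4, -0.65 to -0.49 for Dusp5, 0.03 to 0.07, 0.16 to 0.39 and 0.05 to 0.35 for Dusp6 probes 1 to 3, -0.69 to -0.48 and -0.51 to -0.39 for Dusp10 probes 1 and 2, -1.41 to -1.14 for Spry4 and -0.88 to -0.72 for Spred1. Dusp6 probe 3 passed the threshold at 0.27 without both arrays numbered 1, and Dusp10 probe 1 lost its call at -0.56 and -0.54 without DAC/TSA array 2 or 3.

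With the replicate number as a block, the 13 probes kept 3 higher and 5 lower calls, and the array gave 4604 higher and 4395 lower probes. The design is balanced, so the block cannot change a difference (Spry4 stays at -1.28), only its standard error. The block changed no call of these probes. Of the 115 genes measured in the 6 pathway lists, 17 were higher and 59 lower with the block. For probes near the detection limit, signal over background limits how well a fold can be given.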
